A study of Caenorhabditis elegans with 15 samples.

Results

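The genes described here are 40 synaptic and neurotransmitter genes of *C. elegans*, chosen by name from a list, out of 46911 genes in the count table. The names were chosen by role, without a threshold on a measured value, and with earlier results of these data known. All 40 matched 1 gene ID each and all 40 passed the filter on low counts in every comparison. RNA was sequenced from whole worms in 5 groups of 3 libraries. The worms were L1 larvae, hatched from bleached adults and arrested by starvation. They carried or lacked mutations in *eff-1*, which encodes the fusogen that joins most epidermal cells into syncytia, and the comparisons ask how L1 transcripts differ when these cells do not fuse.

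In the first experiment, wild type (WT batch 1) was grown in parallel with *eff-1*(S441L), the allele *oj55*, and *eff-1*(P183L), the allele *hy21*. Both alleles came from mutagenesis screens, are described as partial reduction-of-function alleles and are expected to carry background mutations. In the second experiment, wild type (WT batch 2) was grown with *eff-1*(P37Stop), a putative null made by CRISPR with stop codons in exon 1. The study's strain list gives the array *jcIs1* (with *rol-6*(*su1006*), *unc-29*(+) and an *ajm-1::GFP* reporter) for both screen alleles, and *kuIs46* (with *unc-119*(+) and the same reporter) with *bqSi640* for the animals edited to P37Stop. The gene *unc-119* stood at 844 ± 40.6 CPM in WT batch 2 and 1062 ± 65.4 in P37Stop, against 28.1 ± 0.673 in WT batch 1 (SD, n = 3; CPM are library-size-scaled counts, with TMM factors over all 15 libraries). The gene *rol-6* stood at 429 ± 16.98 CPM in S441L but at 1.66 ± 0.346 in P183L and 0.522 ± 0.104 in WT batch 1. *unc-119* and *unc-29* were left out of the list because these arrays carry them. The experiment and the strain background of the WT groups cannot be told apart.

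At a chemical synapse, vesicles are filled with transmitter, docked at the active zone, primed, and fused with the membrane by the SNARE proteins when calcium enters through voltage-gated channels. Vesicle membrane is then recovered by endocytosis. Neuropeptides are released from a separate class of vesicle, the dense core vesicle, in which peptide precursors are cut and trimmed by dedicated enzymes. *C. elegans* neurons use acetylcholine, GABA, glutamate and the monoamines dopamine, serotonin, tyramine and octopamine, and neurons and muscles are also coupled by gap junctions made of innexins. Many of these genes were first found through uncoordinated (*unc*) movement when mutated.

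Total counts ran from 35858217 to 47820215 per library. The summed level of the 40 genes was 7629 ± 180 CPM in WT batch 1. It was 4597 ± 32.4 CPM in S441L, against 2170 ± 25.2 for P183L, and 8079 ± 297 CPM in WT batch 2 against 6490 ± 299 in P37Stop (SD, n = 3). The libraries of each mutant all lay below those of its WT in this sum. The genes *egl-3*, *egl-21* and *ida-1* weighed most in it, at 1687, 1322 and 1006 CPM in WT batch 1. In S441L they were at 565, 494 and 465 CPM, so the lower sum there comes largely from these genes. As a share of total counts, without TMM, the 40 genes took 0.642%, 0.663% and 0.728% in P37Stop and 0.685%, 0.713% and 0.737% in WT batch 2, which overlapped, while S441L and P183L (0.258% to 0.480%) stayed below WT batch 1 (0.664% to 0.674%). *eff-1* itself, at 26.95 ± 2.65 CPM in WT batch 2 and 18.4 ± 1.60 in P37Stop, fell by 0.52 on the log2 scale (adjusted p = 0.0104), and was at 28.7 ± 2.21 CPM in WT batch 1, 32.2 ± 1.85 in S441L, then 33.01 ± 2.19 in P183L. Neuron, muscle, intestine and epidermis markers were detected in every group.

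Per length, the peptide-processing genes were the most abundant of the 40. In WT batch 1, *egl-21* stood at 866 TPM (abundance corrected for exon length and library size), *egl-3* at 730, *ida-1* at 430 and *snb-1* at 272. The lowest TPM values were those of *tdc-1* (2.07), *cat-1* (1.60), *cat-2* (0.346) and *tph-1* (0.338), each used in few neurons. The order of TPM over the 40 genes in WT batch 1 was close to that in S441L (Spearman 0.983), P37Stop (0.961) and WT batch 2 (0.947), and less close to that in P183L (0.597). These coefficients describe 40 genes, which are not replicates. Of the 40 genes, 9 lay on the X chromosome (22.5%, against 13.697% of protein-coding genes in the table), and their median gene span was 6535 bp against 2028 bp. Exon bases were shared with another annotated gene in 15 of them, 13 on the opposite strand, over at most 5.822% of a gene's exon length with any 1 gene. Whether the counting used strand is not given in the sources used here.

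A gene was called up or down at an adjusted p below 0.05 together with a log2 fold change beyond 0.5 in either direction, the thresholds of the study, tested by edgeR (quasi-likelihood F-test) with p-values adjusted by the Benjamini-Hochberg method over all genes tested. In P37Stop against WT batch 2, 0 of the 40 were called up and 3 were called down, where 12.7% of all genes tested were called up and 5.9% down. In S441L against WT batch 1, 4 were up and 5 down (24.2% and 15.8% of all genes tested). In P183L against WT batch 1, 6 were up and 26 down (40.2% and 40.2%). The median log2 fold change of the 40 was -0.24, -0.14 and -1.15 in P37Stop, S441L and P183L, against 0.02, 0.03 and 0.02 over all genes tested. Scaling by total counts, without TMM, moved the all-gene medians to 0.24, 0.21 and 0.53. The medians of the 40 then were -0.02, 0.05 and -0.65, which changes sign in S441L, and relative to all genes they stayed lower, by -0.26, -0.16 and -1.17. Whole-worm RNA cannot tell fewer cells of a type apart from less RNA per cell.

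**Figure D1:**
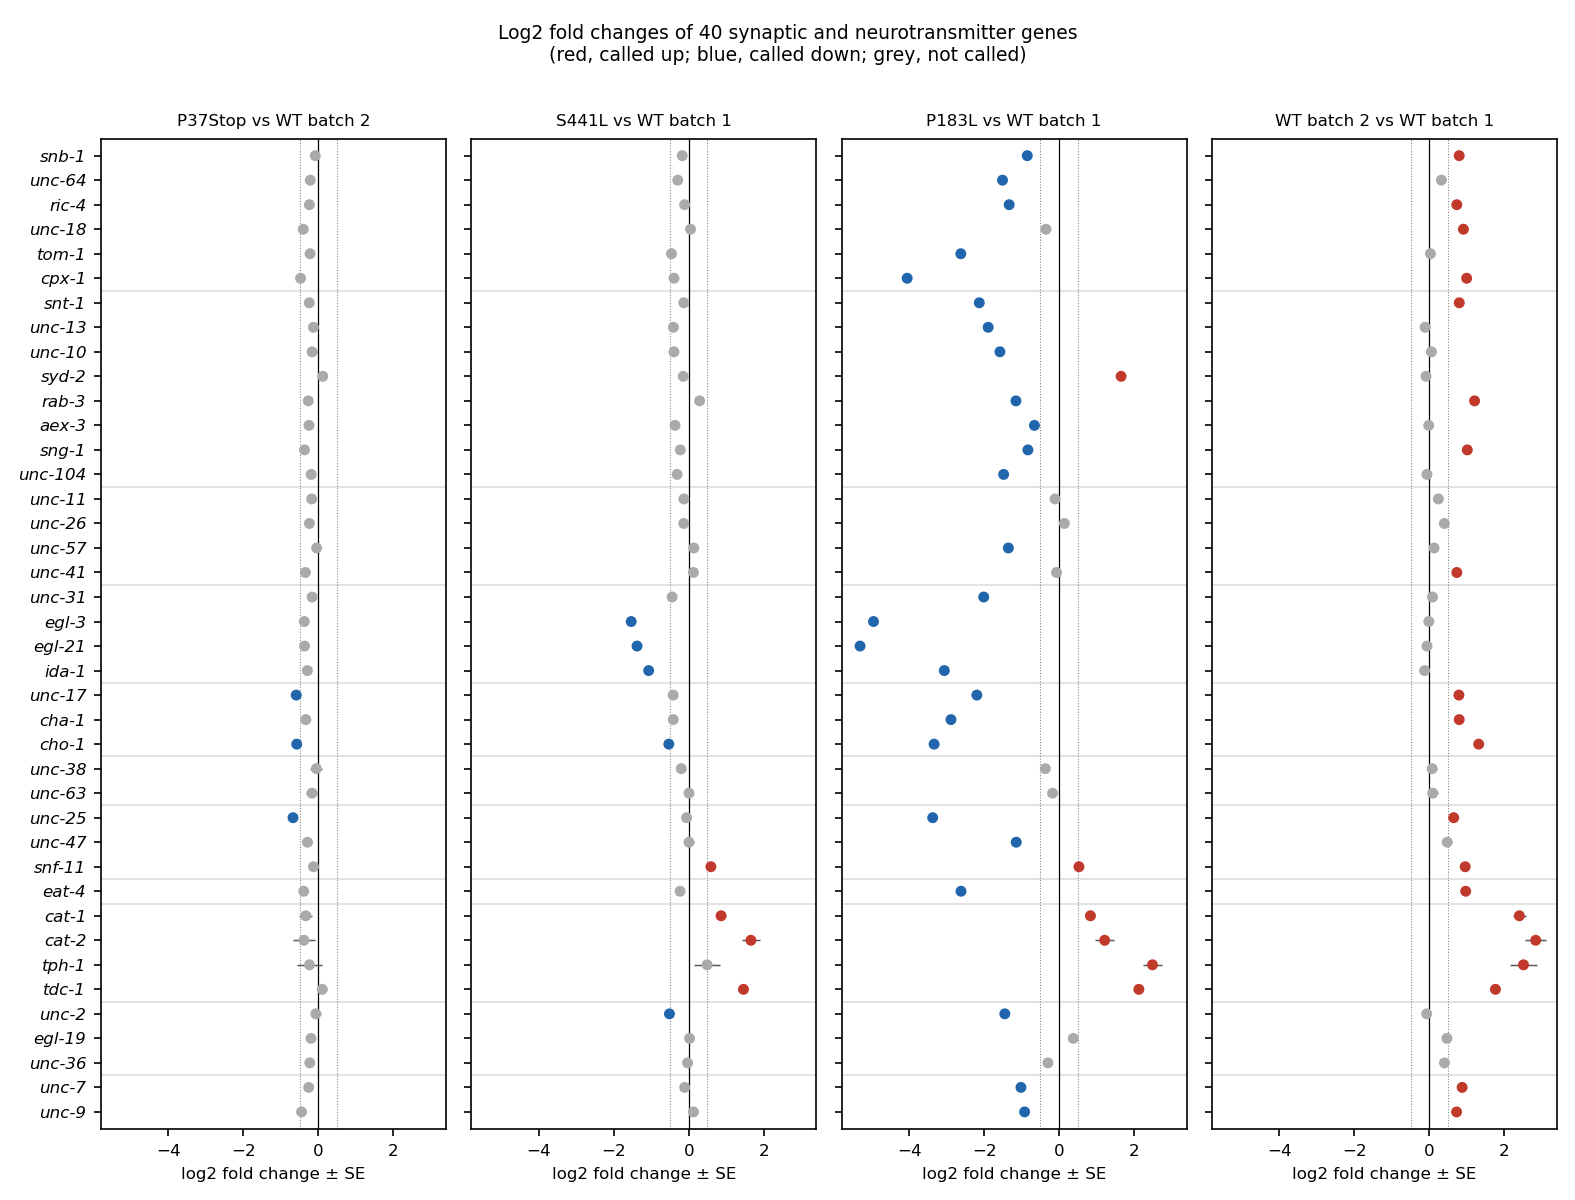
Log2 fold change (x axis, ± SE from edgeR) of each of the 40 genes, grouped by role from the SNARE machinery at the top to the innexins at the bottom, in 4 comparisons of 3 against 3 libraries. Dotted lines mark the limits of 0.5. In P37Stop 38 of the 40 points lie left of 0 and 3 are called, in P183L 26 are called down, and between the WT groups 20 are called up and 0 down.

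The gene *cho-1* (WBGene00000501, chromosome IV, 13209730 to 13214566, WBcel235), which encodes the high-affinity transporter that returns choline to cholinergic terminals, was the only 1 of the 40 called in the same direction in all 3 mutants. Over all genes tested in the 3 mutants, 2% were down in all 3 and 4.56% up in all 3. Its levels were 50.4, 46.9 and 53.4 CPM in the WT batch 2 libraries and 30.5, 30.6 and 38.2 in P37Stop. In the first experiment they were 18.9, 23.1 and 23.1 CPM in WT batch 1, 14.02, 14.7 and 15.01 in S441L and 1.78, 2.49 and 2.41 in P183L. No mutant library overlapped its WT group, although WT batch 2 lay well above WT batch 1. The log2 fold change was -0.58 (SE 0.109, adjusted p = 0.00301) in P37Stop, -0.53 (SE 0.0795, adjusted p = 6.45e-05) in S441L and -3.33 (SE 0.131, adjusted p = 6.91e-11) in P183L. The S441L value is close to the limit and was -0.50 or -0.49, no longer called, without WT batch 1 replicate 2 or 3. With total counts it was -0.35 in P37Stop and -0.34 in S441L, not called in either.

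The other presynaptic cholinergic genes lie together on chromosome IV. *unc-17* (WBGene00006756, 3618259 to 3624699, minus strand), the vesicular acetylcholine transporter, lies almost wholly within the span of *cha-1* (WBGene00000481, 3613931 to 3624697), choline acetyltransferase, with 66 shared exon bases, so part of their counts is uncertain. *unc-17* stood at 84.3, 69.8 and 74.7 CPM in WT batch 2 and 41.5, 50.8 and 56.9 in P37Stop. In the first experiment it was 45.97, 49.6 and 46.8 CPM in WT batch 1, 33.8, 36.4 and 33.4 in S441L, and 10.99, 10.4 and 10.8 in P183L. Each mutant group lay wholly below its WT. *unc-17* fell by 0.59 on the log2 scale in P37Stop (SE 0.117, adjusted p = 0.00387) and by 2.19 in P183L (SE 0.057, adjusted p = 1.25e-12). In S441L its log2 fold change of -0.42 passed the adjusted p but not the fold limit. The P37Stop call was lost without P37Stop replicate 1 (-0.48) and with total counts (-0.37). *cha-1* had log2 fold changes of -0.34 in P37Stop, -0.41 in S441L and -2.88 in P183L, the last of which was called. The acetylcholine receptor subunits *unc-38* and *unc-63*, which form part of the levamisole receptor of muscle, were called in none of the 3 mutants, with values from -0.37 to 0.01.

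Among the GABA genes, *unc-25* (WBGene00006762, chromosome III, 12942651 to 12949883), the glutamic acid decarboxylase that makes GABA, had the lowest log2 fold change of the 40 in P37Stop. It stood at 249, 218 and 234 CPM in WT batch 2 and at 139, 144 and 147 in P37Stop, a fall of 0.68 on the log2 scale (SE 0.0816, adjusted p = 0.000208) with no overlap. In the first experiment the levels were 149, 166 and 165 CPM in WT batch 1, 152, 148 and 148 in S441L, and 15.7, 15.6 and 16.7 in P183L. S441L overlapped WT (log2 fold change -0.06, SE 0.0469, adjusted p = 0.291), and *unc-25* fell by 3.37 in P183L (SE 0.0549, adjusted p = 1.99e-14). The P37Stop effect was lower than the S441L effect by a log2 difference of -0.60 (SE 0.0828, adjusted p = 2.74e-05, both experiments in 1 fit). With total counts the P37Stop value was -0.46 and was not called. *unc-47*, the vesicular GABA transporter, had log2 fold changes of -0.29, 0.01 and -1.14 in P37Stop, S441L and P183L, called in P183L.

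The plasma membrane GABA transporter *snf-11* (WBGene00004910, chromosome V, 11305070 to 11308446) did not follow the other GABA genes. It was at 53.8, 48.4 and 49.9 CPM in WT batch 1, 75.8, 73.4 and 73.2 in S441L and 74.1, 75.3 and 77.7 in P183L. Both screen alleles lay above every WT batch 1 library. *snf-11* rose by a log2 fold change of 0.59 in S441L (SE 0.0504, adjusted p = 3.41e-07) and 0.53 in P183L (SE 0.0502, adjusted p = 5.13e-07). The P183L value was 0.49 with DESeq2 and 0.48 without WT batch 1 replicate 2, and not called in either. In P37Stop, at 83.1, 73.2 and 90.0 CPM against 96.5, 84.9 and 93.1, the groups overlapped (log2 fold change -0.13, adjusted p = 0.345). *eat-4* (WBGene00001135, chromosome III, 9136887 to 9141827), the vesicular glutamate transporter, was at 40.7, 41.3 and 36.97 CPM in WT batch 1 and 6.57, 7.17 and 6.33 in P183L, and fell by 2.62 (SE 0.0727, adjusted p = 2.33e-12). In S441L it was 32.7, 32.0 and 33.6 CPM, with a log2 fold change of -0.23. In P37Stop it was 52.1, 53.97 and 56.2 CPM against 74.6, 70.0 and 72.0, with a log2 fold change of -0.39 (adjusted p = 0.00449) inside the fold limit. All 3 mutants were below WT in every library for *eat-4*.

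The monoamine genes were the only role group of the 40 in which every member was higher in P183L. *cat-2*, tyrosine hydroxylase and the first enzyme of dopamine synthesis (WBGene00000296, chromosome II, 257819 to 261074), stood at 0.525, 0.950 and 0.810 CPM in WT batch 1. It stood at 2.06, 2.26 and 2.63 in S441L and 1.76, 1.59 and 2.10 in P183L, all above WT batch 1. The mean count behind these values was 27 in WT batch 1. *cat-2* rose by 1.66 in S441L (SE 0.235, adjusted p = 4.04e-05) and by 1.22 in P183L (SE 0.257, adjusted p = 0.000679), the former the largest rise of the 40 in S441L. In the second experiment *cat-2* was at 4.43, 4.36 and 6.34 CPM in WT batch 2 and 3.81, 2.55 and 5.04 in P37Stop, which overlapped (-0.39, adjusted p = 0.373).

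*cat-1*, the vesicular monoamine transporter (WBGene00000295, X chromosome, 5705690 to 5710737), was at 2.81, 3.01 and 2.89 CPM in WT batch 1, 4.93, 5.36 and 5.06 in S441L, and 5.60, 5.38 and 5.09 in P183L. It rose by 0.86 in S441L (SE 0.131, adjusted p = 7.16e-05) and 0.84 in P183L (SE 0.13, adjusted p = 5.42e-05), and the screen alleles overlapped each other. *cat-1* was at 13.6, 11.9 and 17.3 CPM in WT batch 2 and 9.68, 11.5 and 12.1 in P37Stop (-0.34, adjusted p = 0.178). *tdc-1*, tyrosine decarboxylase, which makes tyramine (WBGene00006562, chromosome II, 8270597 to 8273615), was at 4.38, 4.91 and 4.66 CPM in WT batch 1, 12.7, 11.8 and 12.7 in S441L, and 21.5, 20.7 and 20.8 in P183L. The 3 groups were fully separated in this order, with log2 fold changes of 1.46 in S441L (SE 0.102, adjusted p = 4.5e-08) and 2.13 in P183L (SE 0.0788, adjusted p = 3.89e-11). P37Stop, at 15.98, 14.8 and 15.7 CPM, overlapped WT batch 2, at 14.02, 15.2 and 14.8 (0.10, adjusted p = 0.595).

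*tph-1*, tryptophan hydroxylase, the first enzyme of serotonin synthesis (WBGene00006600, chromosome II, 7549335 to 7551983), was not called in S441L. It was at 0.840, 0.426 and 0.430 CPM in WT batch 1, 0.787, 0.803 and 0.742 in S441L and 3.50, 2.98 and 3.52 in P183L. S441L lay inside the range of WT batch 1 (0.49, SE 0.337, adjusted p = 0.219), whereas P183L lay above both and had the largest rise of the 40 (2.49, SE 0.258, adjusted p = 1.21e-06). The mean count of *tph-1* in WT batch 1 was 21. Without WT batch 1 replicate 1, the highest of that group, the S441L value was 0.88 and was called. P37Stop, at 3.11, 2.61 and 1.84 CPM, overlapped WT batch 2, at 3.06, 2.37 and 3.66 (-0.24, adjusted p = 0.632).

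**Figure D2:**
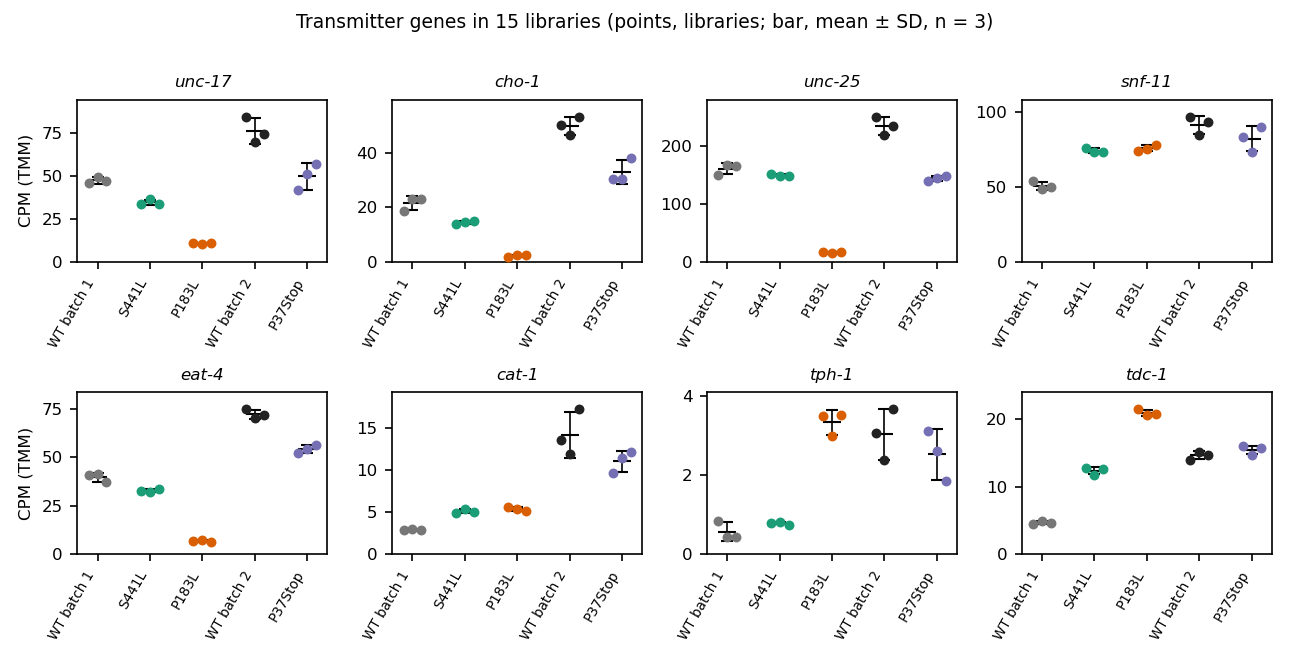
Levels of 8 transmitter genes in the 15 libraries (y axis, CPM scaled by TMM, from 0; x axis, group). Points are libraries and the bar is the mean ± SD of 3. *unc-17*, *cho-1*, *unc-25* and *eat-4* lie lowest in P183L, *tdc-1* and *tph-1* lie higher there than in WT batch 1, and all 8 lie higher in WT batch 2 than in WT batch 1.

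Of the 6 SNARE fusion genes, 5 were called down in P183L (40.2% of all genes tested). In P37Stop and S441L 0 of the 6 were called, where 18.6% and 40% of all genes tested were called either way. *snb-1*, synaptobrevin, the vesicle SNARE (WBGene00004897, chromosome V, 6655562 to 6656501), was at 198, 188 and 207 CPM in WT batch 1, 177, 165 and 169 in S441L and 112, 116.1 and 113 in P183L. The syntaxin gene *unc-64* (WBGene00006798, chromosome III, 13277258 to 13283887) was at 161, 171 and 167 CPM in WT batch 1, 132, 130 and 134 in S441L, and 59.3, 60.5 and 61.5 in P183L. *ric-4*, which encodes SNAP-25 (WBGene00004364, chromosome V, 10261131 to 10270314), was at 118, 118 and 114 CPM in WT batch 1, 105, 105 and 105 in S441L, and 49.02, 47.4 and 47.5 in P183L. In all 3 genes the order was WT batch 1, S441L, P183L, with no overlap. The log2 fold changes in P183L were -0.85 for *snb-1* (SE 0.0441, adjusted p = 1.14e-09), -1.51 for *unc-64* (SE 0.0386, adjusted p = 1.07e-12) and -1.33 for *ric-4* (SE 0.0395, adjusted p = 4.36e-12). With total counts the *snb-1* value was -0.35 and was not called. In TPM, which uses no TMM factor, *snb-1* was not lower, at 277 in P183L against 272 in WT batch 1. In S441L the log2 fold changes of the 3 genes were -0.17, -0.29 and -0.11, past the adjusted p and inside the fold limit.

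In the second experiment none of these SNARE genes was called in P37Stop, and no difference between the P37Stop and S441L effects passed the test (0.10, 0.09 and -0.11 for *snb-1*, *unc-64* and *ric-4*, SE 0.0944, 0.0725 and 0.0633, adjusted p = 0.41, 0.329 and 0.172). *snb-1* was at 355, 295 and 309 CPM in WT batch 2 and 314, 291 and 282 in P37Stop, with overlap (-0.08, adjusted p = 0.55). *unc-64* was at 187, 192 and 202 CPM in WT batch 2 and 161, 156 and 174 in P37Stop (-0.22, adjusted p = 0.0762). *ric-4* was at 175, 184 and 181 CPM and 146, 154 and 149 in the same groups (-0.24, adjusted p = 0.0434). P37Stop lay below every WT batch 2 library for *unc-64* and *ric-4*, without reaching the fold limit.

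The regulators of SNARE assembly spanned a wide range. *cpx-1*, complexin, which clamps and promotes fusion (WBGene00022271, chromosome I, 1594649 to 1596216), was at 68.8, 72.2 and 62.6 CPM in WT batch 1, 49.8, 51.9 and 48.7 in S441L, and 3.92, 4.24 and 4.56 in P183L. It fell by 4.05 in P183L (SE 0.0771, adjusted p = 7.18e-14), the third lowest value of the 40. In P37Stop it was 91.5, 81.2 and 94.0 CPM against 134, 123 and 121 in WT batch 2, with no overlap and a log2 fold change of -0.47 (SE 0.0856, adjusted p = 0.00226) just inside the limit. *tom-1*, tomosyn, an inhibitor of SNARE assembly, fell by 2.62 in P183L, whereas *unc-18*, the syntaxin-binding Sec1/Munc18 protein, was at -0.35 there and was not called.

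Of the 8 genes of priming, calcium sensing, the active zone and vesicle transport, 7 were called down in P183L (40.2% of all genes tested). They were *snt-1* (synaptotagmin, the calcium sensor) at -2.13, *unc-13* (the priming factor Munc13) at -1.89, *unc-10* (RIM, an active zone scaffold) at -1.58, *unc-104* (the kinesin that carries vesicle precursors) at -1.48, *rab-3* at -1.15, *sng-1* (synaptogyrin) at -0.83 and *aex-3* (the exchange factor for RAB-3) at -0.66. Of these, *sng-1* and *aex-3* were not called with total counts (-0.33 and -0.16). In TPM these 2 were not lower in P183L, at 23.5 and 32.5 against 22.8 and 28.0 in WT batch 1. The exception among the 8 was *syd-2*, liprin-alpha, which organizes active zones (WBGene00006364, X chromosome, 10549106 to 10555239). It was at 64.5, 65.6 and 64.5 CPM in WT batch 1, 52.96, 57.9 and 59.7 in S441L and 214, 211 and 208 in P183L. *syd-2* rose by 1.65 in P183L (SE 0.0363, adjusted p = 2.69e-13), and every P183L library lay above every other library of the series. In S441L its value was -0.15. In P37Stop, at 63.2, 54.2 and 63.4 CPM against 53.95, 58.1 and 57.7, the groups overlapped, and its log2 fold change of 0.12 (adjusted p = 0.396) was still the highest of the 40.

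The 4 endocytosis genes had a median log2 fold change of -0.09 in P183L, against -1.42 for the SNARE group and -1.32 for the priming and active zone group. *unc-57*, endophilin, fell by 1.35 there and had the value nearest to 0 among the negative values in P37Stop (-0.05, adjusted p = 0.737). Its levels were 115.3, 127 and 125 CPM in WT batch 2 and 114.8, 110 and 125 in P37Stop, which overlapped. In the first experiment *unc-57* was at 128, 109 and 125 CPM in WT batch 1, 125, 126 and 135 in S441L, and 49.5, 49.3 and 47.9 in P183L. The other endocytosis genes, *unc-11* (AP180), *unc-26* (synaptojanin) and *unc-41* (stonin), were called in none of the 3 mutants, with values from -0.35 to 0.14, although *unc-26* was at 0.64 in P183L with total counts and was then called up.

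The 4 dense core vesicle genes included the lowest log2 fold changes of the 40 in both screen alleles. *egl-3*, the proprotein convertase that cuts neuropeptide precursors (WBGene00001172, chromosome V, 10169177 to 10173753), was at 1627, 1749 and 1686 CPM in WT batch 1, 570, 565 and 561 in S441L and 59.1, 54.4 and 56.1 in P183L. *egl-21*, the carboxypeptidase E that trims the cut peptides (WBGene00001189, chromosome IV, 10478442 to 10481844), was at 1278, 1364 and 1325 CPM in WT batch 1, 488, 495 and 498 in S441L and 34.4, 34.4 and 34.9 in P183L. *ida-1*, a dense core vesicle membrane protein of the IA-2 family (WBGene00002048, chromosome III, 5755539 to 5765816), was at 938, 1090 and 989 CPM in WT batch 1, 477, 456 and 463 in S441L and 123, 122 and 129 in P183L. For each, the 3 groups were separated in the order WT batch 1, S441L, P183L.

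In S441L these genes fell by 1.53 (*egl-3*, SE 0.0383, adjusted p = 3.15e-12), 1.38 (*egl-21*, SE 0.0378, adjusted p = 7.27e-12) and 1.07 (*ida-1*, SE 0.0502, adjusted p = 9.02e-10), the 3 lowest values of the 40. In P183L their log2 fold changes were -4.95 (SE 0.052, adjusted p = 1.12e-15), -5.31 (SE 0.0469, adjusted p = 6.42e-16) and -3.06 (SE 0.0561, adjusted p = 5.2e-14). In P37Stop *egl-3* was at 1126, 1233 and 1171 CPM against 1601, 1428 and 1635, and *egl-21* at 887, 955 and 845 against 1253, 1072 and 1212. *ida-1* was at 694, 711 and 655 CPM against 849, 800 and 923. P37Stop lay below WT batch 2 in all 3 genes, with log2 fold changes of -0.37, -0.37 and -0.29 that passed the adjusted p (0.0147, 0.0177 and 0.0392) but not the fold limit. The P37Stop effect differed from the S441L effect by log2 values of 1.18 for *egl-3*, 1.02 for *egl-21* and 0.79 for *ida-1* (adjusted p = 4.3e-08, 2.32e-07 and 5.51e-06). *unc-31*, CAPS, which is needed for dense core vesicle release, had values of -0.17, -0.44 and -2.01 in P37Stop, S441L and P183L, of which the last was called.

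**Figure D3:**
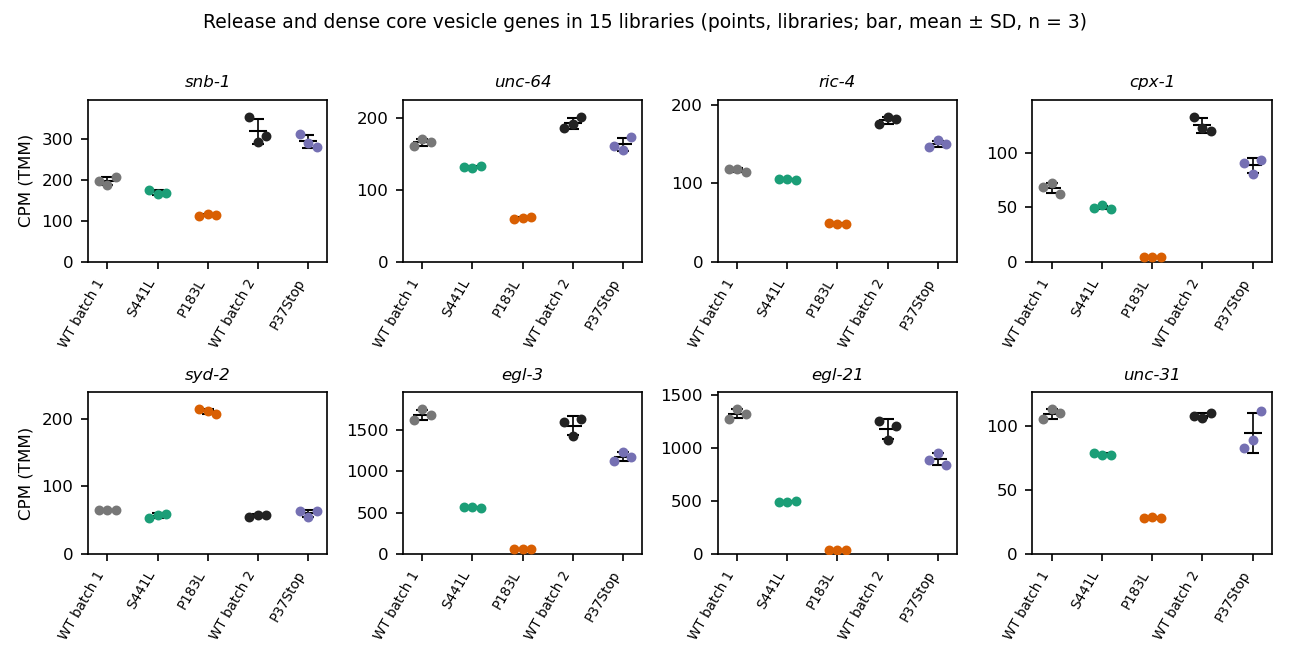
Levels of 8 release and dense core vesicle genes in the 15 libraries (y axis, CPM scaled by TMM, from 0; x axis, group). Points are libraries and the bar is the mean ± SD of 3. *egl-3* and *egl-21* step down from WT batch 1 to S441L to P183L, while *syd-2* lies at 208 to 214 CPM in P183L and at 52.96 to 65.6 CPM in the other groups.

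Of the calcium channel genes, *unc-2*, the alpha1 subunit of the channel that triggers release at synapses, fell by 0.51 in S441L (SE 0.0379, adjusted p = 8.05e-08) and by 1.45 in P183L. The S441L value was -0.49 with a filter on TPM and -0.32 with total counts, and not called in either. *egl-19*, the alpha1 subunit of the L-type channel, which muscle also uses, and *unc-36*, an alpha2/delta subunit, were called in none of the 3 mutants (-0.30 to 0.38), although *egl-19* was at 0.88 in P183L with total counts and was then called. The innexins *unc-7* and *unc-9*, which form gap junctions between neurons and, for *unc-9*, between muscles, fell by 1.02 and 0.92 in P183L, the latter at -0.42 and not called with total counts. In P37Stop they were at -0.26 and -0.45 and in S441L at -0.11 and 0.13. In TPM *unc-9* was at 35.5 in P183L and 36.7 in WT batch 1.

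In P37Stop, with TMM scaling, the differences were small and mostly in 1 direction. Intestine and muscle markers also moved this way, with 5 of 7 and 3 of 8 called down at medians of -0.69 and -0.46 (5.9% of all genes tested were called down). The 9 neuron markers outside the 40 were all negative, with a median of -0.19 and 0 called. Epidermis markers (1 up and 0 down of 6, median -0.03) and glia markers (2 up and 1 down of 7, median -0.19) were mixed, where 12.7% of all genes tested were called up. The part of these markers in the values of the 40 genes was not tested. The log2 fold change was negative for 38 of the 40 genes (48.4% of all genes tested), and 22 had every P37Stop library below every WT batch 2 library (22.2% of all genes tested). With no limit on the fold change, 15 passed the adjusted p in the downward direction (11.8% of all genes tested) and 0 upward. With total counts the median of the 40 was -0.02, against -0.24 with TMM, so the direction largely went, although relative to all genes it was -0.26. There 0 were called down, and calls over all genes were 3155 up and 362 down, against 2000 up and 931 down with TMM. Without P37Stop replicate 3, 5 of the 40 were called down, with *cpx-1* (-0.51) and *unc-9* (-0.57) added. In S441L, 27 of the 40 were negative (48% of all genes tested) and 25 were lower in every library (36.2%), and with no fold limit 24 passed in the downward direction (31.5%). In P183L, 32 were negative (49.5%), 29 were lower in every library (44.1%) and 8 higher in every library (47.2%). The sign was negative in all 3 mutants for 25 genes and positive in all 3 for *tdc-1* alone, and no gene was called up in 1 mutant and down in another. The shares of all genes with these patterns were not computed, so whether these counts are unusual is not known. S441L and P183L share their WT libraries.

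The screen alleles were grown in parallel and were also compared directly. In P183L against S441L, 3 of the 40 were up and 25 down (38.1% and 40.4% of all genes tested; 6 up with no fold limit, 44.7% of all genes tested), and the median was -1.02 against -0.02 over all genes. The genes higher in P183L were *tph-1* (2.08), *syd-2* (1.88) and *tdc-1* (0.75). The lowest were *egl-21* (-3.85), *cpx-1* (-3.58), *egl-3* (-3.34) and *unc-25* (-3.23). No difference was called between the alleles for *cat-1* (0.05, SE 0.108), *snf-11* (0.02, SE 0.0345) or *cat-2* (-0.36, SE 0.18).

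Effects of alleles from separate experiments were compared as a difference of effects in a fit of all 15 libraries. The P37Stop effect differed from the P183L effect at an adjusted p below 0.05 for 35 of the 40, higher in 26 and lower in 9, where 70.4% of all genes tested differed, 38% higher and 32.4% lower. It differed from the S441L effect for 16, higher in 7 and lower in 9, where 40.5% differed, 23.2% higher and 17.3% lower. Either way, the share for S441L was near that of all genes. Among those that passed, the 5 lowest differences from S441L were in *cat-2* (-2.02), *tdc-1* (-1.34), *cat-1* (-1.18), *snf-11* (-0.71) and *unc-25* (-0.60), and *tph-1* (-0.71, SE 0.413, adjusted p = 0.187) did not pass. These genes include those that rose in S441L. Over the 40 genes, the log2 fold changes of P37Stop and S441L, which share no libraries, had a Pearson coefficient of 0.199 and a Spearman coefficient of 0.0917, a description of genes and not a test.

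The WT groups of the experiments also differed from each other in these genes. In WT batch 2 against WT batch 1, 20 of the 40 were up and 0 down (18.6% and 14.3% of all genes tested). The median was 0.56 against 0.00 over all genes. All 4 monoamine genes were higher, *cat-2* by 2.83 (SE 0.286, adjusted p = 6.79e-06), *tph-1* by 2.51 (SE 0.351, adjusted p = 9.63e-05), *cat-1* by 2.40 (SE 0.17, adjusted p = 3.67e-07) and *tdc-1* by 1.76 (SE 0.129, adjusted p = 4.86e-07). *cho-1* (1.31), *rab-3* (1.20), *sng-1* (1.01) and *cpx-1* (0.99) followed. The dense core vesicle genes were not among them, at -0.13 to 0.08. A mutant set against the WT of the other experiment therefore gave other counts. P37Stop against WT batch 1 had 10 of the 40 up and 2 down, where 22.7% of all genes tested were up and 14.7% down, so that the share up was near that of all genes. S441L against WT batch 2 had 0 up and 22 down (20.9% and 17.9% of all genes tested), and P183L against WT batch 2 had 2 up and 30 down (39.9% and 39.4%). For *cat-1*, *cat-2* and *snf-11* the direction in S441L and P183L changed with the WT group used.

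Other genes of the same pathways, taken from lists that hold none of the 40, were read in the same fits. Their counts stand beside shares of all genes tested that were called up and down of 40.2% and 40.2% in P183L, 24.2% and 15.8% in S441L, 12.7% and 5.9% in P37Stop, and 18.6% and 14.3% in WT batch 2 against WT batch 1. Of 63 transmitter receptors, 6 were up and 48 down in P183L, with a median of -1.39, from *acr-23* (-4.63) to *lev-8* (3.08), both members of the nicotinic receptor family. In S441L 7 were up and 9 down (median -0.15), in P37Stop 0 up and 5 down (median -0.27) and in WT batch 2 against WT batch 1 34 up and 0 down (median 0.64). Of 48 other synaptic and vesicle genes, 15 were up and 27 down in P183L (median -0.58), from *pgal-1* (-5.20), an enzyme of peptide amidation, to *nab-1* (3.02), neurabin. In S441L 0 were up and 5 down, the lowest being *sbt-1* (-1.29), the chaperone of the convertase EGL-3, and in P37Stop 1 up and 1 down. Of 20 other genes of transmitter synthesis and transport, 5 were up and 10 down in P183L, 8 up and 2 down in S441L, and 1 up and 3 down in P37Stop. The glutamate transporter *glt-1* was the lowest in P183L (-4.34) and in P37Stop (-0.99).

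The lists of transcription factors had positive medians in P183L, and so did the receptor assembly genes (0.49) and the other innexins (0.28). With total counts, log2 fold changes in all lists shift upward by about as much as the all-gene medians given above. Of 31 transcription factors of neuron identity, 19 were up and 5 down (median 0.63), from *unc-55* (-3.16) to *ceh-36* (3.83). Of 11 proneural factors tested, which act when neuroblasts form in the embryo, 8 were up and 2 down (median 2.46), with *hlh-14* at 4.32, *hlh-3* at 4.25 and *ngn-1* at 4.05. In P37Stop, 3 of 10 tested were up, *ngn-1* (3.04), *hlh-14* (2.25) and *hlh-3* (1.07), and 0 were down (median 0.26). In S441L, 3 of 11 tested were up and 1, *cnd-1* (-0.99), was down, with a median of -0.22 and a summed level of 117 to 123 CPM, against 146 to 161 in WT batch 1. Of 31 neuron identity factors 1 was up and 1 down in P37Stop, and 2 up and 5 down of 30 tested in S441L. Of 21 other innexins tested, 8 were up and 4 down in P183L, with *inx-3* at 5.23. Of 15 receptor assembly genes 7 were up and 5 down, and of 21 neuronal G protein signaling genes 4 were up and 9 down, where 40.2% of all genes tested were called in each direction.

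**Figure D4:**
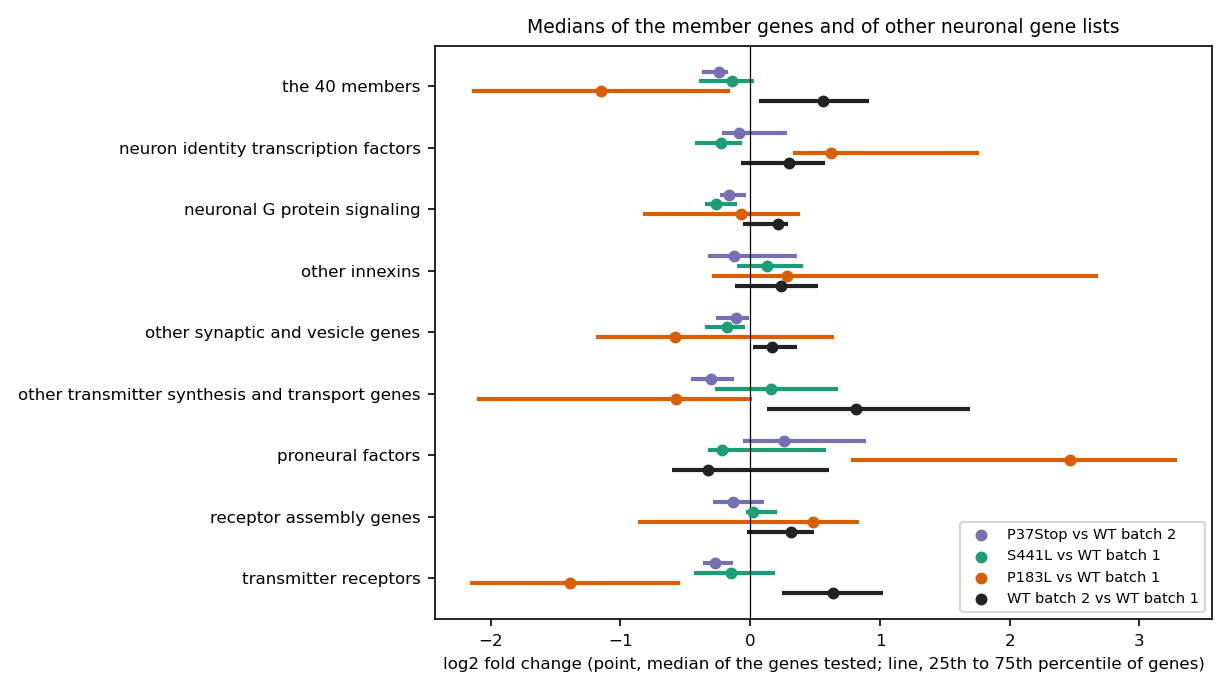
Median log2 fold change (point) and the 25th to 75th percentile of genes (line) for the 40 genes and 8 other gene lists in 4 comparisons of 3 against 3 libraries. In P183L the 40 genes (-1.15) and the transmitter receptors (-1.39) lie left of 0, and the proneural factors (2.46) and neuron identity factors (0.63) right of it.

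Markers of other tissues and stages moved with the P183L libraries. The counts below stand beside 40.2% of all genes tested called up and 40.2% called down in P183L. In S441L 24.2% were called up and 15.8% down, and in P37Stop 12.7% and 5.9%. All 8 muscle markers fell, their summed level going from 21355 to 24272 CPM in WT batch 1 to 3223 to 3340 in P183L. All 13 maternal and oocyte markers rose, from 55.2 to 61.2 CPM in WT batch 1 to 761 to 766 in P183L, and 7 of 7 early embryo markers tested rose, from 3.57 to 4.75 CPM to 63.8 to 68.9. Of 7 intestine markers 4 fell and 1 rose, with the sum going from 3109 to 3505 CPM to 689 to 697. Of 6 epidermis markers 4 rose and 1 fell, with the sum going from 374 to 405 CPM to 863 to 869.6. Of 7 glia markers 4 rose and 3 fell, with sums of 145 to 155 CPM in WT batch 1 and 198 to 200.4 in P183L. The early embryo marker *med-1*, the 1 not tested, was at 0 in every WT library of both experiments. The 9 neuron markers outside the 40 were mixed, 3 up and 5 down, and none of the 9 was at 0 in any group. Their sums were 2273 to 2468 CPM in WT batch 1 and 2100 to 2163 in P183L. Most of these sums was *unc-44*, at a mean of 1501 CPM in WT batch 1 and 1808 in P183L. Between the same groups *mec-7* went from 527 to 61.7 CPM and *unc-33* from 82.0 to 201, so near-equal sums hide changes both ways. The maternal markers also rose in S441L (12 of 13, 124 to 129 CPM) and in P37Stop (10 of 13, 103.7 to 234 CPM, against 33.5 to 74.8 in WT batch 2). Of 5 early embryo markers tested, 2 were up and 0 down in P37Stop, and 0 up and 1 down in S441L. Their sum was 8.21 to 18.6 CPM in P37Stop, against 1.23 to 5.36 in WT batch 2. In S441L, 0 neuron markers were up and 4 down of 9. Muscle markers there were 2 up and 0 down of 8, and intestine markers 3 up and 0 down of 7. In P37Stop the summed level of the intestine markers was 1614 to 1873 CPM against 2722 to 3225 in WT batch 2, and that of the muscle markers was 15297 to 17259 CPM against 20791 to 24089.8. The part of these shifts in the values of the 40 genes was not tested.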

How the data were processed

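Per the submitters' processing notes, fastp, STAR, Picard and HTSeq were used with build ce11, without stated versions, and the study's methods also name Salmon. The authors deposited a table of expected counts per gene, of which 3.7% were not whole, so counts were rounded. Counting was not stated as stranded in the sources used here. The row without a gene ID was left out. Each comparison of 3 against 3 libraries was fitted alone in edgeR 4.0.16 (R 4.3.3, limma 3.58.1) with filterByExpr (minimum count 10), TMM and glmQLFTest. Differences of effects used all 15 libraries. SE is that of the log2 fold change. DESeq2 1.42.0, other scalings and filters, a replicate block and leave-one-out were alternatives, and using the WT of the other experiment was added after seeing the data. The test was checked on simulated data. TPM used exon lengths of Ensembl 115, which holds 46857 of the 46911 IDs. Chi-square tests found no duplicated library. Per the study's methods, the replicates of each experiment were grown in parallel, each from its own plate.

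The 40 genes, their roles and the other lists were chosen with earlier results of these data known. Full values were given for genes called alike in all 3 mutants, the 3 highest and 3 lowest in each mutant, 1 or more marker genes per transmitter, and *snb-1*, *unc-64* and *ric-4*. Promoter sequences were not analysed here.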

Additional observations from a re-analysis of the deposited data

Results flagged for a closer look

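The effect of P37Stop, relative to WT batch 2, differed from that of S441L, relative to WT batch 1, for 16 of the 40 genes, and from that of P183L for 35, in edgeR's test of the difference with all 15 libraries in 1 fit (40.5% and 70.4% of all genes tested differed). For S441L the share of the 40 that differed was therefore near that of all genes. In 8 genes the P37Stop and S441L effects also had opposite signs. The differences, P37Stop minus S441L, were -2.02 for *cat-2*, -1.18 for *cat-1*, -0.71 for *snf-11*, -0.56 for *unc-9*, -0.54 for *rab-3*, -0.45 for *unc-41* and -0.43 for *unc-18*, all lower in P37Stop, and 0.28 for *syd-2*, higher in P37Stop. Of these genes, *cat-1*, *cat-2* and *snf-11* were called in S441L, and none of the 8 was called in P37Stop. With no fold limit, only *rab-3* and *unc-41* passed the adjusted p in both comparisons. In the others the sign of 1 of the effects is uncertain. The WT groups themselves differed in *cat-2* by 2.83, *cat-1* by 2.40, *rab-3* by 1.20 and *snf-11* by 0.95 (WT batch 2 minus WT batch 1), and the allele and the experiment cannot be told apart in these differences.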

How the results depend on the processing

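Precision is limited by 3 libraries a group and by depth for *tph-1* and *cat-2*, at mean counts of 21 and 27 in WT batch 1. Libraries varied more in the P37Stop comparison, with a common biological coefficient of variation of 0.214, against 0.074 for S441L and 0.066 for P183L. In the simulated data, 67 of 100 changes of log2 size 1 were called for P37Stop, 87 for S441L and 81 for P183L. Of 100 changes of log2 size 2, 84, 99 and 99 were called in the same order. Counts of calls in these comparisons therefore do not have equal power. Genes left unchanged in the simulation gave 17 false calls for P37Stop, 12 for S441L and 12 for P183L. No gene that was called changed direction under any alternative other than the exchange of WT groups, and 73 values that were not called changed sign, the largest at 0.43 in size, 38 of them with total counts. Members called down in P37Stop numbered 3, but 0 with total counts, 15 with no fold limit and 3 to 5 leaving out 1 library. Members called down in S441L numbered 5, but 3 with total counts, 24 with no fold limit and 4 to 5 leaving out 1 library. Members up in P183L against S441L numbered 3, but 5 with total counts and 6 with no fold limit. Leaving out 1 library, the other counts were 0 up in P37Stop, 4 to 5 up in S441L, 5 to 6 up and 26 down in P183L, 3 up and 24 to 25 down in P183L against S441L, and 20 to 21 up and 0 down between the WT groups. The count of members whose P37Stop effect differed from that of S441L was 12 to 21, and from that of P183L 34 to 36. Deviations of same-numbered libraries correlated at most at 0.099. The same number gave the best partner for 3 replicates in P183L against WT batch 1 and for 0 in each other comparison. The replicate block left the counts at 0 up and 3 down in P37Stop, 4 and 5 in S441L and 6 and 26 in P183L.

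With each mutant set against the WT group it was not grown with, a choice made after seeing the data, the counts were 10 up in P37Stop, 0 up and 22 down in S441L and 2 up in P183L. Log2 fold changes that reversed in P37Stop were *snb-1* 0.61, *rab-3* 0.83, *sng-1* 0.54, *unc-17* 0.094, *cho-1* 0.63, *snf-11* 0.72, *cat-1* 1.96, *cat-2* 2.35, *tph-1* 2.17 and *unc-7* 0.51. In S441L they were *unc-18* -0.83, *rab-3* -0.88, *unc-41* -0.57, *snf-11* -0.33, *cat-1* -1.50, *cat-2* -1.15, *tph-1* -1.98, *tdc-1* -0.27 and *unc-9* -0.57. In P183L they were *snf-11* -0.28, *cat-1* -1.42 and *cat-2* -1.48. WT batch 2 and WT batch 1 differ in these genes, as given above, and the cause was not tested.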
